A study of Sus scrofa with 2 samples.

Results

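Some cultured porcine stem cells held many transcripts of CDC20, CCNB1 and PTTG1 but no counted transcript of TOP2A or CDK1, and these cells are described here as TOP2A-negative CDC20-high cells. A unique molecular identifier (UMI) marks each captured RNA molecule, so that amplified copies are counted once. A cell belonged to the set when its barcode held at least 5000 UMIs, the UMIs of CCNB1, CDC20 and PTTG1 summed to at least 8, and TOP2A and CDK1 were both at 0. The rule found 2440 such cells among 21179 barcodes with at least 5000 UMIs and 25207 barcodes in all. It was drawn up to find candidates for cells that have just divided, and whether they have divided was not tested. They were set against 2301 TOP2A-positive cells, with at least 5 UMIs of TOP2A, 1 of CDK1 and 2 of CCNB1. That rule does not separate cells in mitosis from cells about to enter it. They were also set against 9906 non-cycling cells, with 0 UMIs of TOP2A, CDK1, CCNB1, PLK1 and MKI67. The remaining 6532 barcodes above the floor fitted none of these rules.

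The anaphase-promoting complex (APC/C) is the ubiquitin ligase that ends mitosis. CDC20 activates it at the metaphase plate, and it then marks securin, the product of PTTG1, and cyclin B1, the product of CCNB1, for destruction, which frees separase to part the sister chromatids and switches off the kinase CDK1. As cells leave mitosis FZR1 replaces CDC20 as the activator and the APC/C goes on to remove CDC20, PLK1, the Aurora kinases and many other late cycle proteins, while their messenger RNAs are lost on a schedule of their own. TOP2A encodes the topoisomerase that untangles chromosomes before they part.

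The cells were adipose-derived stem cells, fibroblast-like progenitors that grow out of digested fat. They were taken from chest fat of healthy Bama miniature pigs, grown through 3 generations in 14 days and frozen, per the labels, and the series title names keloid prevention and functional subgroups. There was 1 group, with no treatment, of 2 droplet libraries (Chromium 3' v3.1), and the labels do not say whether these came from separate animals or cultures, so p-values speak only to the spread of these libraries, possibly a technical one. The files list 12251 barcodes with 211527905 UMIs in all for library 1, and 12956 with 246316928 for library 2. The libraries shared 46 barcodes, and 1 barcode was a TOP2A-negative CDC20-high cell in both.

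TOP2A-negative CDC20-high cells made up 12.7% of the barcodes above the floor in library 1 (1218 of 9581, exact binomial 95% interval 12.1 to 13.4%) and 10.5% in library 2 (1222 of 11598, 9.98 to 11.11%). These intervals cover counting error only, and each library is 1 sample, so the libraries were not tested against each other. The share follows the thresholds: with a sum of at least 12 UMIs it was 9.62% and 7.19%. Among all cells that reached the sum of 8, TOP2A was at 0 in 1432 of 3219 cells (44.5%) of library 1 and in 1369 of 3380 (40.5%) of library 2. It was at 1 to 4 UMIs in 20.5% and 15.7%, and at 5 or more in 35.0% and 43.8%. CDK1 followed it, with a UMI in 14.9% and 10.7% of the cells without TOP2A, 53.9% and 30.3% of those with 1 to 4, and 96.3% and 89.3% of those with 5 or more. Median UMIs per cell were 21629.5 and 20642, 22472 and 22413, and 33705 and 32717 in the same order. Deeper cells show a UMI of any gene more often, and the part of depth in these shares was not tested.

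**Figure D1:**
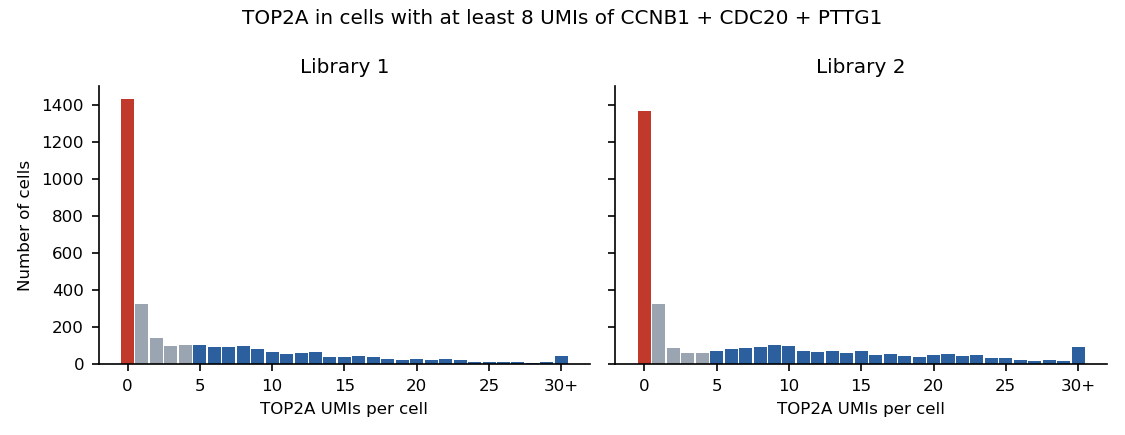
TOP2A UMIs per cell (x axis) against the number of cells (y axis) in each library, among cells with at least 8 UMIs of CCNB1, CDC20 and PTTG1 together. The red bar holds the 1432 and 1369 cells without TOP2A, the blue bars those with 5 or more UMIs, and the grey bars between them 1 to 4 UMIs.

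The 3 genes that chose the cells were carried together. CDC20 gave 44.7% of the summed UMIs in library 1 and 43.6% in library 2, PTTG1 35.9% and 36.3%, and CCNB1 19.4% and 20.1%. All 3 were detected in 84.4% of the cells in library 1 and 85.9% in library 2, and the sum had a median of 17 and 15 UMIs. In CPM, the counts of the summed cells scaled to a total of 1e+06 UMIs, CDC20 stood at 416 and 396 CPM in libraries 1 and 2, against 443 and 390 CPM in TOP2A-positive cells and 17.2 and 14.4 CPM in non-cycling cells. PTTG1 stood at 334 and 330 CPM, against 351 and 316 CPM in TOP2A-positive cells and 23.1 and 18.0 CPM in non-cycling cells. CCNB1 stood at 181 and 182 CPM, against 253 and 238 CPM in TOP2A-positive cells and 0 in non-cycling cells by their rule. These values describe the choice of cells and were not tested.

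Because the same UMIs chose and measured the cells, each cell's UMIs were also split at random into 2 equal sets, 1 to choose the classes with halved thresholds and the other to measure. In the set not used for choosing, TOP2A stood at 9.98 and 14.7 CPM in the TOP2A-negative CDC20-high cells, against 396 and 507 CPM in TOP2A-positive cells and 4.30 and 4.92 CPM in non-cycling cells. CDC20 stood at 396 and 370 CPM in that set, against 444 and 400 CPM in TOP2A-positive cells and 21.1 and 19.2 CPM in non-cycling cells. The near absence of TOP2A and the high CDC20 were thus also present in UMIs that the rule did not see. DLGAP5, which encodes a spindle protein and was named as a marker without entering the rule, was detected in 84.6% and 91.2% of the cells. Thinned to 5000 UMIs per cell it was seen in 46.6% and 60.8%, against 60.8% and 65.7% of TOP2A-positive cells and 3.63% and 4.02% of non-cycling cells.

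Cells just inside and just outside the sum of 8 UMIs lay close together in DLGAP5. Those with a sum of 8 UMIs, which were inside, had 63.6 CPM of DLGAP5 in library 1 and 98.2 CPM in library 2, and those with a sum of 7 had 63.0 and 95.4 CPM. Cells left out for 1 UMI of TOP2A had 150 and 176 CPM of DLGAP5, near the 141 and 178 CPM of the set as a whole. They held more UBE2C, an enzyme that works with the APC/C, at 75.02 and 67.51 CPM against 44.9 and 45.3 CPM in the set. CENPF, a kinetochore protein, stood at 100.2 and 118.6 CPM in them, against 69.9 and 90.1 CPM in the set. Cells left out for 1 UMI of CDK1, with TOP2A at 0, had 184 and 196 CPM of DLGAP5. Their UBE2C stood at 86.8 and 83.6 CPM. The set itself was graded when ordered by the summed UMIs of the 3 genes per 10000 UMIs. Genes that move with those 3 follow this order partly by its choice. The lowest tercile was also the deepest, with medians of 24543 and 23224 UMIs against 19009 and 18711 in the highest. The order is thus partly one of depth. The highest tercile held 205 and 259 CPM of DLGAP5, the middle 152 and 191 CPM, and the lowest 86.8 and 108 CPM. PLK1, a kinase of mitotic entry and exit, stood at 136 and 140 CPM in the highest tercile, 68.2 and 73.6 CPM in the middle and 21.8 and 24.6 CPM in the lowest. MCM3, a subunit of the replicative helicase, stayed between 13.8 and 18.3 CPM in all terciles and both libraries.

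The cells held fewer UMIs than TOP2A-positive cells. Their median was 21381 UMIs in library 1 and 20609.5 in library 2, against 33990 and 33616.5 in TOP2A-positive cells and 18299 and 17473 in non-cycling cells, which came to 62.9% and 61.3% of the TOP2A-positive median and 117% and 118% of the non-cycling median. The median number of genes was 4730 and 4698.5, against 5853 and 5919 in TOP2A-positive and 4220 and 4249 in non-cycling cells. UMI thresholds favour deep cells where they ask for many UMIs and shallow cells where they ask for 0, so depth is partly set by the rules. Smaller cells and poorer capture cannot be told apart in UMIs. Mean UMIs per cell of RPLP0, a ribosomal protein gene, were 61.8% and 60.6% of those in TOP2A-positive cells, and of COL1A2, a type I collagen chain, 63.4% and 62.1%. The mean over all genes was 63.2% and 62.2%, close to both of these genes, which were chosen as examples. ACTB, a cytoskeletal actin, came to 84.4% and 86.6%. CDKN3, which encodes a phosphatase that acts on cyclin-dependent kinases, came to 62.1% and 63.1%, whereas UBE2C came to 2.94% and 3.21%.

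**Figure D2:**
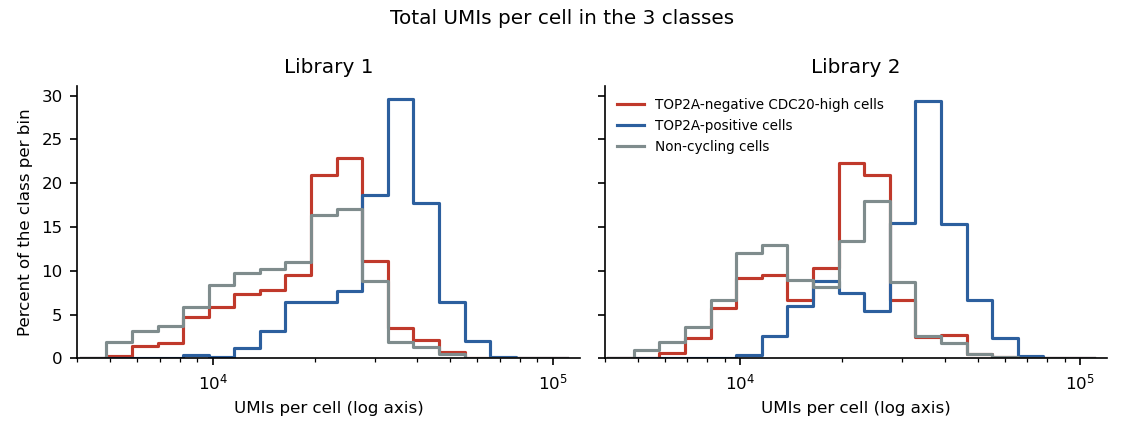
UMIs per cell on a log axis (x) against the percent of each class per bin (y), for libraries 1 and 2. The curve of TOP2A-negative CDC20-high cells (medians 21381 and 20609.5) lies left of that of TOP2A-positive cells (33990 and 33616.5) and overlaps that of non-cycling cells (18299 and 17473).

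Stromal markers were abundant in all classes. The summed level of 8 of them was 4637 and 5646 CPM in TOP2A-negative CDC20-high cells, against 4346 and 5318 CPM in TOP2A-positive and 5832 and 7515 CPM in non-cycling cells. Lists of fat cell, macrophage, lymphocyte, mural and epithelial markers summed to at most 4.15 CPM in the set in either library, and 6 endothelial markers to 11.4 and 14.4 CPM. LEP, C1QA, C1QB, CD3D, MS4A1, CD2, EPCAM, KRT8 and KRT18 were at 0. The median share of UMIs from the mitochondrial ribosomal and transfer RNA genes in the files was 0.131% and 0.119%, against 0.0924% and 0.0741% in TOP2A-positive and 0.145% and 0.122% in non-cycling cells, and its part in the results was not tested.

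The first comparison asked what the TOP2A-negative CDC20-high cells had less of, or more of, than TOP2A-positive cells. UMIs were summed per class and library and fitted with edgeR's quasi-likelihood test with the library as a term. Calls needed an adjusted p (Benjamini-Hochberg) under 0.05, a log2 difference of at least 0.5 in size and the same sign in both libraries. Of 16034 genes tested, 869 were called lower (5.42%) and 589 higher (3.67%), 9.09% in either direction. Without the library term, which puts the difference between libraries into the spread, 93 genes were called lower and 4 higher. Of the genes named as falling in the paragraphs on this comparison, FBXO5, FZR1, ANAPC1, CDC23, AURKA, CDCA8, HJURP, TPX2, DLGAP5, KIF23, PRC1, MKI67, RRM2, CDKN1B and LMNB1 were not called without it. Genes that follow the cycle move with the genes of the rule, so their differences partly come with the choice of cells.

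Several regulators of the APC/C fell. UBE2C, the enzyme that starts ubiquitin chains for the APC/C, fell furthest of the genes named by rule: it stood at 44.9 and 45.3 CPM in TOP2A-negative CDC20-high cells, against 965 and 876 CPM in TOP2A-positive cells, a log2 difference of -4.41 ± 0.06 (SE; edgeR adjusted p = 5.20e-24). Its partner UBE2S, which extends the chains, stood at 120 and 114 CPM in the set, against 299 and 287 CPM in TOP2A-positive cells (-1.39 ± 0.06). FBXO5, whose product EMI1 inhibits the APC/C before mitosis, stood at 2.33 and 0.895 CPM in the set, against 24.8 and 25.4 CPM in TOP2A-positive cells (-4.02 ± 0.25). FZR1 fell by 0.92 on the log2 scale, with 16.96 and 18.2 CPM in the set against 32.2 and 31.4 CPM in TOP2A-positive cells.

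Of 27 tested genes of mitotic cyclins, the APC/C and its partners, 14 fell and 0 rose (8 fell without the library term), with a median log2 difference of -0.92 against 0.02 over all genes tested. CCNB2 stood at 38.1 and 37.9 CPM in the set, against 101 and 95.7 CPM in TOP2A-positive cells (-1.43 ± 0.07), and CCNA2, which encodes cyclin A2, at 27.0 and 27.6 CPM in the set, against 84.1 and 81.8 CPM in TOP2A-positive cells (-1.67 ± 0.07). ESPL1, which encodes separase, stood at 4.11 and 5.00 CPM in the set, against 14.9 and 17.6 CPM in TOP2A-positive cells (-1.90 ± 0.13). In each of these 3 genes the values of the classes did not overlap across libraries. How often that held over all genes tested was not counted, so it adds nothing to the calls. Among the APC/C subunits, ANAPC1 and CDC23 fell (-0.92 ± 0.09 and -0.98 ± 0.13), while ANAPC13 stood at 155 and 161 CPM in the set, against 150 and 150 CPM in TOP2A-positive cells, and was not called. CKS2, which encodes a CDK-binding protein, stood at 157 and 98.6 CPM in the set, against 524 and 404 CPM in TOP2A-positive cells, but varied between libraries in non-cycling cells (88.4 and 24.3 CPM) and was not called.

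Mitotic kinases and phosphatases fell in 14 of 20 tested genes and rose in 0 (3 fell without the library term), with a median log2 difference of -1.23. AURKB, the kinase of the chromosomal passenger complex, stood at 13.4 and 12.3 CPM in the set, against 164 and 149 CPM in TOP2A-positive cells (-3.67 ± 0.08, edgeR adjusted p = 8.48e-21). The passenger subunits differed among themselves. INCENP stood at 16.3 and 19.9 CPM in the set, against 78.3 and 88.8 CPM in TOP2A-positive cells (-2.27 ± 0.07), and CDCA8, which encodes borealin, at 12.3 and 9.11 CPM in the set, against 50.4 and 37.0 CPM in TOP2A-positive cells (-2.09 ± 0.09). BIRC5, which encodes survivin, stood at 214 and 230 CPM in the set, against 268 and 265 CPM in TOP2A-positive cells (-0.33 ± 0.06), too small a difference to be called. PLK1 stood at 68.4 and 73.3 CPM in the set, against 198 and 201 CPM in TOP2A-positive cells (-1.56 ± 0.06), and AURKA, the spindle pole kinase, at 28.9 and 25.5 CPM in the set, against 113 and 106 CPM in TOP2A-positive cells (-2.08 ± 0.10). CDC25B, a phosphatase that activates CDK1, stood at 18.6 and 18.7 CPM in the set, against 83.7 and 100.02 CPM in TOP2A-positive cells (-2.36 ± 0.07). CDKN3 stood at 186 and 188 CPM in the set, against 190 and 186 CPM in TOP2A-positive cells, and was not called.

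Spindle and kinesin genes fell in 22 of 30 and kinetochore and centromere genes in 23 of 30, with median log2 differences of -1.08 and -0.91, and 0 rose in either list. Without the library term 10 and 7 fell. CENPF, a large kinetochore protein, stood at 69.9 and 90.1 CPM in the set, against 623 and 773 CPM in TOP2A-positive cells (-3.19 ± 0.06). SGO1, the guardian of centromeric cohesin, stood at 11.8 and 13.3 CPM in the set, against 78.5 and 87.0 CPM in TOP2A-positive cells (-2.78 ± 0.08). HJURP, which loads the centromeric histone CENPA, stood at 2.79 and 2.73 CPM in the set, against 19.3 and 13.2 CPM in TOP2A-positive cells (-2.62 ± 0.18). These fell by more than most of their lists. TPX2, an activator of Aurora A, stood at 185 and 222 CPM in the set, against 295 and 326 CPM in TOP2A-positive cells (-0.68 ± 0.06), and DLGAP5 at 141 and 178 CPM in the set, against 205 and 234 CPM in TOP2A-positive cells (-0.53 ± 0.06), a call that was also lost in 4 other settings, where the difference fell short of 0.5 in size. KIF20A, the motor that carries the passenger complex to the central spindle, stood at 49.0 and 51.9 CPM in the set, against 42.5 and 42.1 CPM in TOP2A-positive cells (0.19 ± 0.07), and was not called.

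Of 23 tested genes of cytokinesis and abscission 7 fell and 0 rose, with a median log2 difference of -0.06, and 4 fell without the library term. Those that fell were KIF23 of the centralspindlin complex, the midzone bundler PRC1, the abscission protein CEP55, INCENP, CDCA8, G2E3 and GAS2L3. PRC1 stood at 49.8 and 56.0 CPM in the set, against 118 and 123 CPM in TOP2A-positive cells (-1.25 ± 0.09). The ESCRT genes that cut the bridge between daughter cells were not called: CHMP4B stood at 125 and 128 CPM in the set, against 106 and 103 CPM in TOP2A-positive cells (0.22 ± 0.06), and VPS4A at 51.3 and 51.7 CPM in the set, against 47.6 and 50.4 CPM in TOP2A-positive cells. Chromosome compaction genes fell in 11 of 18 (4 without the library term). NCAPH of condensin I stood at 3.03 and 4.15 CPM in the set, against 32.1 and 34.5 CPM in TOP2A-positive cells (-3.28 ± 0.14), and MKI67, whose product coats mitotic chromosomes, at 13.2 and 19.4 CPM in the set, against 44.6 and 66.0 CPM in TOP2A-positive cells (-1.82 ± 0.08). HMGB3, a chromatin protein, stood at 103 and 102 CPM in the set, against 109 and 95.5 CPM in TOP2A-positive cells, and was not called.

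**Figure D3:**
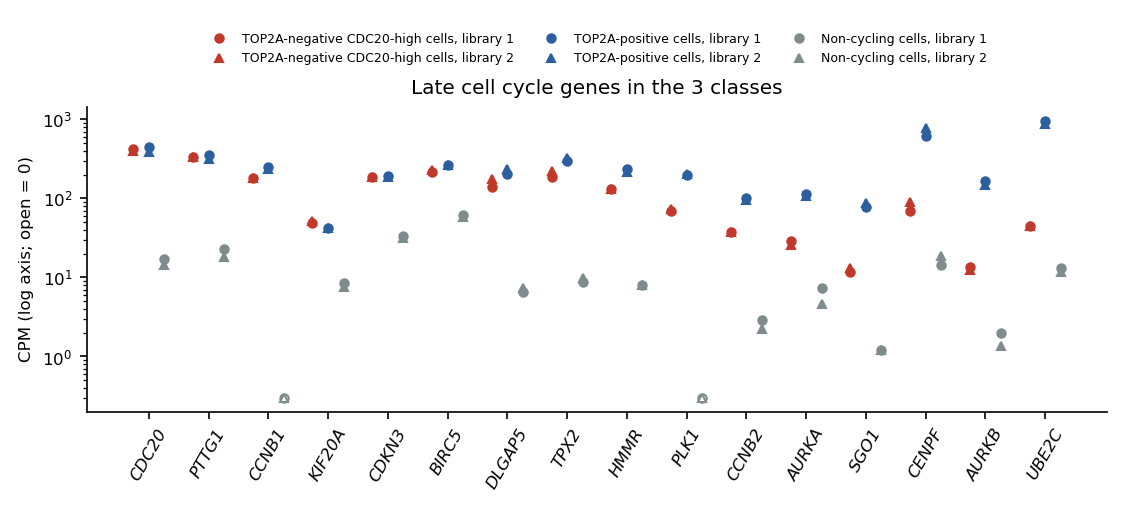
CPM on a log axis (y) of 16 late cycle genes (x) in TOP2A-negative CDC20-high cells (red), TOP2A-positive cells (blue) and non-cycling cells (grey), with circles for library 1 and triangles for library 2 and open symbols for values of 0. The red levels of CDC20 (416 and 396 CPM), PTTG1 and CCNB1 come with the choice of cells, and among genes outside the rule the red points of CDKN3 (186 and 188 CPM) lie at the blue level and those of UBE2C (44.9 and 45.3 CPM) nearer the grey one.

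Genes of DNA replication fell in 25 of 42 and rose in 1. Without the library term 7 fell, and 14 fell where the rule was applied to cells thinned to 10000 UMIs. RRM2, a subunit of ribonucleotide reductase, stood at 66.5 and 53.8 CPM in the set, against 166 and 133 CPM in TOP2A-positive cells (-1.38 ± 0.12). E2F8, a repressor of replication genes, stood at 2.95 and 2.97 CPM in the set, against 23.0 and 24.5 CPM in TOP2A-positive cells (-3.07 ± 0.12). TYMS, which makes thymidylate, was not called, with 234 and 213 CPM in the set against 239 and 198 CPM in TOP2A-positive cells. The gene that rose was UNG, a DNA repair glycosylase, with 5.94 and 6.02 CPM in the set against 4.47 and 3.52 CPM in TOP2A-positive cells (0.53 ± 0.14), a call lost without the library term, when cells were thinned to 5000 UMIs and with DESeq2. Of 24 genes of the G1 machinery 6 fell and 0 rose (2 fell without the library term). CCND1, which encodes cyclin D1, stood at 210 and 239 CPM in the set, against 259 and 316 CPM in TOP2A-positive cells (-0.42 ± 0.05), too small a difference to be called. CDKN1B, which encodes the inhibitor p27, stood at 17.7 and 17.5 CPM in the set, against 25.7 and 25.4 CPM in TOP2A-positive cells (-0.60 ± 0.08). FOXM1, a driver of late cycle transcription, fell by 2.17 on the log2 scale, with 3.38 and 4.27 CPM in the set against 15.02 and 17.95 CPM in TOP2A-positive cells. Of 25 genes of the nuclear envelope and pores 8 fell and 0 rose (0 fell without the library term). LMNB1, which encodes lamin B1, stood at 51.6 and 56.4 CPM in the set, against 73.9 and 77.5 CPM in TOP2A-positive cells (-0.55 ± 0.07), a call lost in 3 further settings.

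The genes that rose did so by less. The highest by the naming rule was FBXL20, an F-box protein gene, with 42.1 and 34.4 CPM in TOP2A-negative CDC20-high cells, against 18.1 and 11.2 CPM in TOP2A-positive cells (1.34 ± 0.09, edgeR adjusted p = 3.28e-09). UFSP1, TCP11L2, CPEB3, YPEL3, SLC39A14, ANGPTL4, TAF7, GFPT2 and PPIF followed, with log2 differences between 0.75 and 1.31. FBXL20 stood at 47.4 and 34.3 CPM in non-cycling cells, and UFSP1, a protease of the UFM1 pathway, at 15.9 and 16.1 CPM in the set, against 5.88 and 6.43 CPM in TOP2A-positive and 12.5 and 12.6 CPM in non-cycling cells. BTG2, an antiproliferative gene that promotes shortening of poly(A) tails, rose, with 26.0 and 16.7 CPM in the set against 16.3 and 10.6 CPM in TOP2A-positive cells (0.60 ± 0.08), a call lost when cells were thinned to 5000 UMIs. Of these 11 genes only UFSP1 stayed called without the library term. Of 20 matrix genes 1 rose (ASPN, 0.60 ± 0.09, not without the library term). Of 21 contractile genes edgeR and DESeq2 each called 0, with edgeR's unadjusted p under 0.05 in 13 and its adjusted p in 11. Their median log2 difference was -0.19, against 0.02 over all genes tested. Of 49 ribosomal protein genes both called 0, with unadjusted p under 0.05 in 17, adjusted p in 6 and log2 differences between -0.16 and 0.06.

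The second comparison set the same cells against non-cycling cells. Of 16032 genes tested, 959 were called higher (5.98%) and 1461 lower (9.11%), 15.1% in either direction, and without the library term 369 and 169. The rises were led by KIF2C, a motor that takes microtubules apart, with 35.5 and 40.7 CPM in TOP2A-negative CDC20-high cells, against 1.08 and 1.13 CPM in non-cycling cells (5.03 ± 0.09, edgeR adjusted p = 2.70e-22). PIMREG, ASPM, CCNA2, CDCA3, DLGAP5, TPX2, KIF11, TACC3 and BUB1B followed, with log2 differences between 4.25 and 4.77. BUB1B, a kinase-like protein of the spindle checkpoint, stood at 36.5 and 58.6 CPM in the set, against 2.16 and 2.56 CPM in non-cycling cells. Spindle and kinetochore genes rose in 25 of 30 each, chromosome compaction genes in 14 of 17, mitotic kinases and phosphatases in 14 of 19, and cyclins and APC/C genes in 13 of 27. Both classes were chosen by late cycle genes, so rises of genes that move with those come partly with the choice of cells. Replication genes rose in 32 of 42, and in 17 without the library term. FBXO5 was among those not called, at 2.33 and 0.895 CPM in the set against 1.31 and 1.23 CPM in non-cycling cells. WEE1, the kinase that holds CDK1 back, was not called either, at 14.4 and 11.06 CPM in the set against 14.1 and 10.97 CPM in non-cycling cells.

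Contractile genes were lower than in non-cycling cells, in 14 of 21 tested, and 0 were higher (5 were lower without the library term), with a median log2 difference of -0.75 against -0.01 over all genes tested. ACTA2, smooth muscle actin, stood at 29.9 and 52.6 CPM in TOP2A-negative CDC20-high cells, against 104 and 154 CPM in non-cycling cells (-1.74 ± 0.09), a call lost without the library term. TAGLN, an actin-binding protein of contractile cells, stood at 121 and 136 CPM in the set, against 302 and 359 CPM in non-cycling cells (-1.43 ± 0.06). In TOP2A-positive cells ACTA2 was at 35.3 and 75.4 CPM and TAGLN at 125 and 177 CPM, and neither was called between the cycling classes. Matrix genes fell in 9 of 20 (2 without the library term), among them the leucine-rich proteoglycan gene ASPN, with 9.74 and 15.01 CPM in the set against 42.7 and 62.2 CPM in non-cycling cells (-2.16 ± 0.08), and COL1A1, with 874 and 1082 CPM in the set against 1282 and 1633 CPM in non-cycling cells (-0.64 ± 0.05), and the calls of both were lost without that term. Inflammatory and secreted genes fell in 8 of 17 and growth factor genes in 8 of 18, against 4 and 1 without the library term. The growth factor genes HGF and TGFB1 rose (0.85 ± 0.12 and 0.53 ± 0.06), and neither was called without it. The call of TGFB1 was also lost in 3 other settings. LCN2, an iron-binding secreted protein, stood at 6.25 and 6.47 CPM in the set, against 30.4 and 37.4 CPM in non-cycling cells (-2.48 ± 0.13). Of 49 ribosomal protein genes edgeR and DESeq2 each called 0: the unadjusted p was under 0.05 in 46 and the adjusted p in 43, but the log2 differences lay between -0.28 and 0.09, below the size a call needed. The stromal marker sum given above was lower in the set than in non-cycling cells. The summed level of 5 mural markers was also lower, at 4.15 and 3.38 CPM in the set, against 6.83 and 9.01 CPM in non-cycling cells, and of the 3 that could be tested KCNJ8 and NOTCH3 fell (-1.25 ± 0.15 and -1.73 ± 0.43, neither without the library term), while none of the 5 was at 0 in both libraries. The part of either sum in these falls was not tested.

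Each gene's place between the classes was expressed as a percent of the excess of TOP2A-positive over non-cycling cells. It is the part of that excess that the TOP2A-negative CDC20-high cells showed. This is a description over 654 genes called higher in TOP2A-positive than in non-cycling cells and at 20 CPM or more in TOP2A-positive cells of each library, leaving out the genes of the rule. Genes chosen for a high level in TOP2A-positive cells tend to fall short of 100% in any other class. Shares under 100% thus come partly with that choice, and loss after mitosis was not tested. The median was 58.6% (57.5% in library 1 and 59.9% in library 2), with quartiles of 35.0 and 77.7%. It was under 10% in 38 genes, over 50% in 395 and over 100% in 67. By list the median ran from 32.0% for 15 cyclin and APC/C genes, through 42.6% for mitotic kinases and phosphatases, 45.4% for kinetochore genes, 46.1% for spindle genes, 47.8% for replication genes and 52.5% for compaction genes, to 62.7% for 9 nuclear envelope genes. The lists' ranges overlapped. The highest values were those of GNG11, DAZAP1, NRF1, NIP7, SRSF3, SFPQ, NCL and DLAT, between 140 and 185%. In these 8 genes TOP2A-positive cells exceeded non-cycling cells by a log2 difference of only 0.51 to 0.61, near the 0.5 a call needed. Their percents thus divide by a small excess. SRSF3, a splicing factor, stood at 336 and 346 CPM, against 296 and 304 CPM in TOP2A-positive and 208 and 201 CPM in non-cycling cells. The lowest were those of WWOX, IMMP2L, RAD51B, KIAA1328, XRCC4, PKNOX1, LIN54 and LCORL, between -75.9 and -14.2% as means of the libraries. Their excess was 0.58 to 0.94 on the log2 scale. All 8 lay below the non-cycling level in both libraries except LIN54, at 15.7 CPM in the set against 15.5 CPM in non-cycling cells of library 2. These 16 were picked as extremes. Comparison cells matched on UMIs moved the median of all 654 to 57.2%, though the matched TOP2A-positive cells of library 1 stayed deeper than the set.

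**Figure D4:**
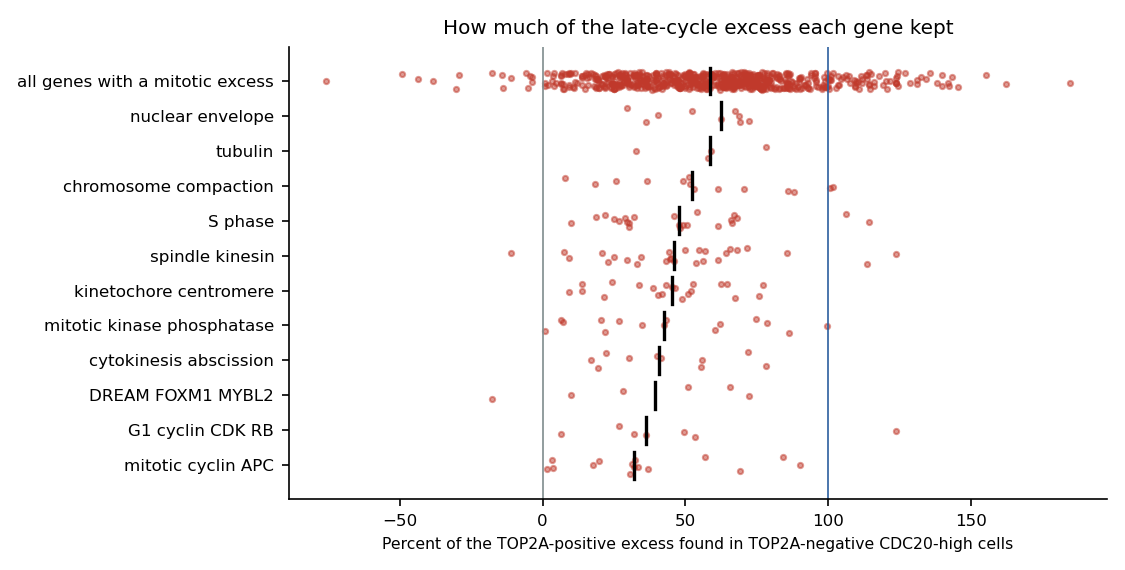
Percent of the excess of TOP2A-positive over non-cycling cells found in TOP2A-negative CDC20-high cells (x axis), with each point a gene and each black bar the median of its list (rows). The grey line at 0 is the non-cycling level and the blue line at 100 the TOP2A-positive level, and the median of all 654 genes is 58.6%.

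Several of the lowest genes are very long, and genes were then grouped by their span in the Sscrofa11.1 annotation, a grouping chosen after these values were seen and not tested. Among genes averaging at least 10 CPM, 100 spanned more than 500 kb. Their median log2 difference was -0.68 from non-cycling cells (-0.63 in library 1 and -0.68 in library 2), where 58 were called lower and 3 higher, and -0.23 from TOP2A-positive cells (-0.19 and -0.26), where 24 were called lower and 0 higher. Without the library term 8 were called lower and 2 higher than in non-cycling cells, and 2 lower and 0 higher than in TOP2A-positive cells. Over all 8031 and 8033 genes so grouped, 6.05% and 4.84% were called lower. The 519 genes of 200 to 500 kb had medians of -0.24 and -0.02, and the 1981 and 1982 genes of 20 to 50 kb 0.11 and 0.01. Against TOP2A-positive cells the medians rose with span, from -0.05 at up to 5 kb to 0.06 at 100 to 200 kb, before falling. Spearman's correlation of the log2 difference with span was -0.20 against non-cycling and 0.09 against TOP2A-positive cells. With comparison cells matched on UMIs it was -0.16 and -0.05. WWOX, which spans 961 kb, stood at 17.5 and 29.2 CPM in TOP2A-negative CDC20-high cells, against 61.3 and 120.8 CPM in TOP2A-positive cells (-2.0 ± 0.07) and 37.1 and 67.1 CPM in non-cycling cells (-1.22 ± 0.07). It was lower than in either other class in each library. FHIT, which spans 1441 kb, stood at 8.07 and 13.9 CPM in TOP2A-negative CDC20-high cells, against 24.5 and 35.5 CPM in TOP2A-positive cells and 47.0 and 61.6 CPM in non-cycling cells. With comparison cells matched on UMIs the median of the longest genes was -0.66 from non-cycling and -0.31 from TOP2A-positive cells. The match fell short in library 1, where matched TOP2A-positive cells had a median of 25978 UMIs against 21381 in the set. In library 2 these medians were 21156.5 and 20609.5 UMIs. Long genes yield many intronic reads, and whether the counts include those is not given in the sources used here.

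**Figure D5:**
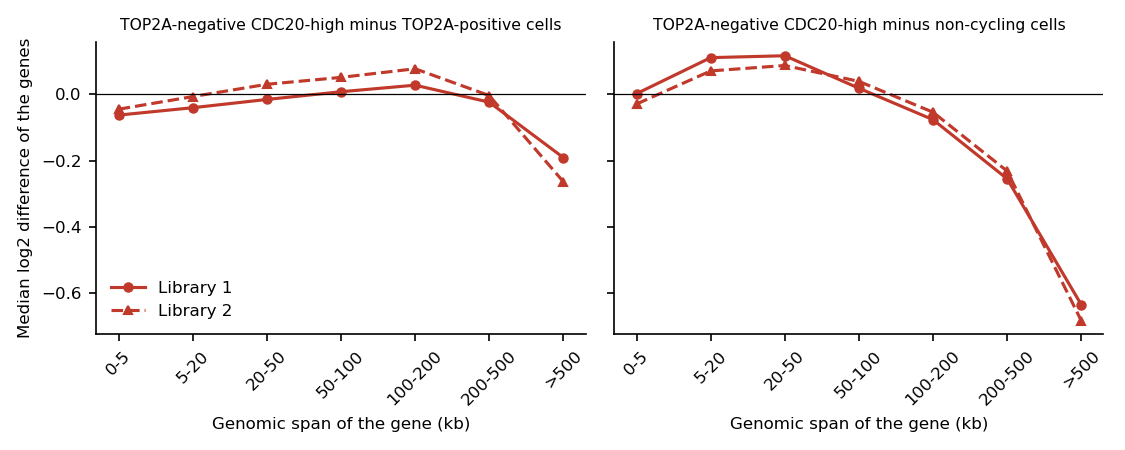
Median log2 difference (y axis) of genes grouped by genomic span in kb (x axis), for TOP2A-negative CDC20-high minus TOP2A-positive cells (left) and minus non-cycling cells (right), with circles for library 1 and triangles for library 2. Genes over 500 kb lie lowest in both comparisons, at -0.19 and -0.26 on the left and -0.63 and -0.68 on the right.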

How the data were processed

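Single-cell RNA was counted in 2 libraries of 1 group. The deposited values are UMI counts, whole numbers for each gene in each barcode and not normalized. Per the file headers they came from Cell Ranger 7.0.0; the submitters' processing notes name Cell Ranger 7.00 and the build Sscrofa11.1. For the annotation and the calling of cells, the sources used here name no settings. The members and gene lists were chosen with earlier results of these data known. Cells are not replicates, so UMIs were summed over 3 classes in each library and the 6 sums were fitted together in edgeR 4.0.16 (R 4.3.3; TMM, filterByExpr, robust quasi-likelihood F test, Benjamini-Hochberg over all genes), with the library as a replicate block because each library holds all classes. The fit had 2 residual degrees of freedom per gene, and its spread borrows from other genes, so very small p-values rest on that. SE is the log2 difference over the root of F. The genes of the rule were not tested. A cell of the set that also met the non-cycling rule (114 and 94 cells) stayed in the set.

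Of 518 list genes 498 were found by symbol. For each comparison the rule named the 10 highest rises and deepest falls at 10 CPM or more and up to 4 further called genes per list. It also named the 8 highest and lowest shares of the TOP2A-positive excess. Other list genes named were chosen after their values were seen. Doublets were scored with Scrublet (scanpy 1.11.5, expected rate 0.08), which marked 0 cells, below the 0.5% under which it was taken not to have worked, so none were removed. Alternatives were DESeq2 1.42.0 as a test, its size factors, no low-count filter, no block, other thresholds and floors, thinning to equal UMIs, comparison cells matched on UMIs, the UMI split, a cell filter, leaving out the highest 8% of doublet scores, and each library alone. The fit was tested on simulated data.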

Additional observations from a re-analysis of the deposited data

Results flagged for a closer look

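Among barcodes under the floor of 5000 UMIs, which entered no comparison, some met the gene part of the rule (a sum of at least 8 UMIs of CCNB1, CDC20 and PTTG1, with TOP2A and CDK1 at 0). There were 3 of 2670 such barcodes in library 1 (0.112%, exact binomial 95% interval 0.0232 to 0.328%) and 1 of 1358 in library 2 (0.0736%, 0.00186 to 0.410%). They were singled out because they met that part of the rule in data that the comparisons did not use, and the intervals cover counting error only. A sum of 8 UMIs is harder to reach in barcodes with so few UMIs, so these shares cannot be set against those above the floor.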

How the results depend on the processing

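Without the replicate block of libraries, genes called against TOP2A-positive cells numbered 4 higher and 93 lower, and against non-cycling cells 369 higher and 169 lower; 42 of 69 and 26 of 83 named calls were lost. The DESeq2 test called 273 genes higher than in TOP2A-positive cells and 891 lower than in non-cycling cells, and counts thinned to 5000 UMIs per cell called 300 higher than in TOP2A-positive cells. The other counts stayed within 1.5 times of those reported, and no named gene changed sign in any setting. The share of cells in the set was 9.62% and 7.19% with a sum of at least 12 UMIs, 17.3% and 14.4% with up to 1 UMI each of TOP2A and CDK1 allowed, and 9.92% and 7.69% where cells were first thinned to 10000 UMIs. The median share of the TOP2A-positive excess was 58.5% in the UMI split and 57.2% with cells matched on UMIs. That match left the TOP2A-positive cells of library 1 deeper than the set. Leaving out a library leaves 1 sample per class and no residual degrees of freedom, so it gave fold changes only and no counts of calls. These moved by more than the spread between the libraries in 1 of 69 named genes against TOP2A-positive cells with either library left out, and in 4 of 83 against non-cycling cells without library 1 and 10 of 83 without library 2. Beyond the block, and among genes named by rule, calls of KPNA2, LMNB2, BTG2, FOSL1, ITGB3, CCL2, PDGFC, GREM1 and DLGAP5 against TOP2A-positive cells and of TFDP2 and MYC against non-cycling cells were lost in at least 1 setting, as were, among other genes given as called, those of CDC23, KIF23, ASPN, UNG and LMNB1 against TOP2A-positive cells and of TGFB1 and NOTCH3 against non-cycling cells; the cause was not tested.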
